A study of Mus musculus with 15 samples.

Results

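Of the 12089 transcripts in the table, 169 had a transient peak 12 h after mouse dental mesenchymal cells (mDMCs) were placed in culture. Their mean log2(score + 1) at 12 h was at least 1 above the means at 0 h and at 48 h, and their mean score at 12 h was at least 100. The score is the normalized expression value deposited for a transcript, and 1 was added before taking log2. The members were thus chosen on the 0, 12 and 48 h libraries, so every difference among these times is a description with no test. Of the 169 members, 167 were matched to 167 genes, and 2 are given by their transcript identifier.

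mDMCs were trypsin-dissociated cells of the mesenchyme of mandibular first molars, taken from ICR mouse embryos at embryonic day 14.5. RNA-seq covered freshly isolated mDMCs (0 h, 3 libraries) and mDMCs kept in FBS-supplemented medium for 12 h (2 libraries), 24 h (3), 36 h (3) and 48 h (3). There was 1 library of dental mesenchymal tissue, which has no replicate. None of the groups carries an engineered allele according to the labels, and no label ties a library to a separate litter, so p-values measure the spread between libraries, which may be technical.

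The defining markers of dental mesenchyme were present in all groups, with values for 12 of 12 listed genes and summed scores of 232947 to 248524 at 0 h and 155056 to 176805 at 12 h. Most of this sum came from Col1a2, Prrx1 and Col1a1, which other mesenchyme also expresses, while the mean score of the tooth factor Pax9 was 4619 at 0 h, 1851 at 12 h and 734.0 at 36 h. The isolates also held other cells. The summed score of the erythroid markers (9 of 11 genes with values) was 98239 to 151173 at 0 h and 365 to 459 at 12 h. That of the endothelial markers (10 of 10) was 10409 to 12207 at 0 h and 1299 to 1927 at 12 h. In such bulk samples, fewer cells of a type and less RNA per cell cannot be told apart. All 15 libraries had a median score of 721, with totals between 21357605 and 21365980, because the scores had been brought to a common distribution before deposition, and the depth is unknown.

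Cells moved from tissue to serum-containing medium pass through several known waves of transcription. Immediate early genes, such as Myc and Arc, respond within minutes to growth factors and need no new protein. Genes of cholesterol synthesis answer to the sterol content of the endoplasmic reticulum: when sterol is low, the factor SREBP is released from the membrane, enters the nucleus and switches on the enzymes of the pathway, often with the CCAAT-binding factor NF-Y beside it. In the molar, the mesenchyme of this stage signals through BMP and FGF ligands to the epithelium, and its homeobox factors of the Dlx family mark the jaw mesenchyme.

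The members rose by a median of 1.85 on the log2 scale from 0 h to 12 h (range 1.004 to 8.87) and lay a median of 1.42 higher at 12 h than at 48 h (1.001 to 3.69). In 155 of them both 12 h libraries lay above every 0 h and 48 h library, against 1150 of all 12089 transcripts (9.51%), a count that the choice of members fixes in large part. The 14 members in which these libraries overlapped included Srp54a, Gm10719, Arc, Aldh1a7, Hipk2, Gm45234, Spink5, Lyz2, Dlx5, Cherp, Mmp3, Ctif and Efna5. The mean was highest at 12 h in 157 members, at 24 h in 10 and at 36 h in 2 (Kcnk2 and Dpep1). Both 12 h libraries entered each peak, and leaving out 12 h replicate 2 gave 297 members, of which 154 were among the 169. Leaving out 12 h replicate 1 gave 143 members, 127 of them shared.

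**Figure D1:**
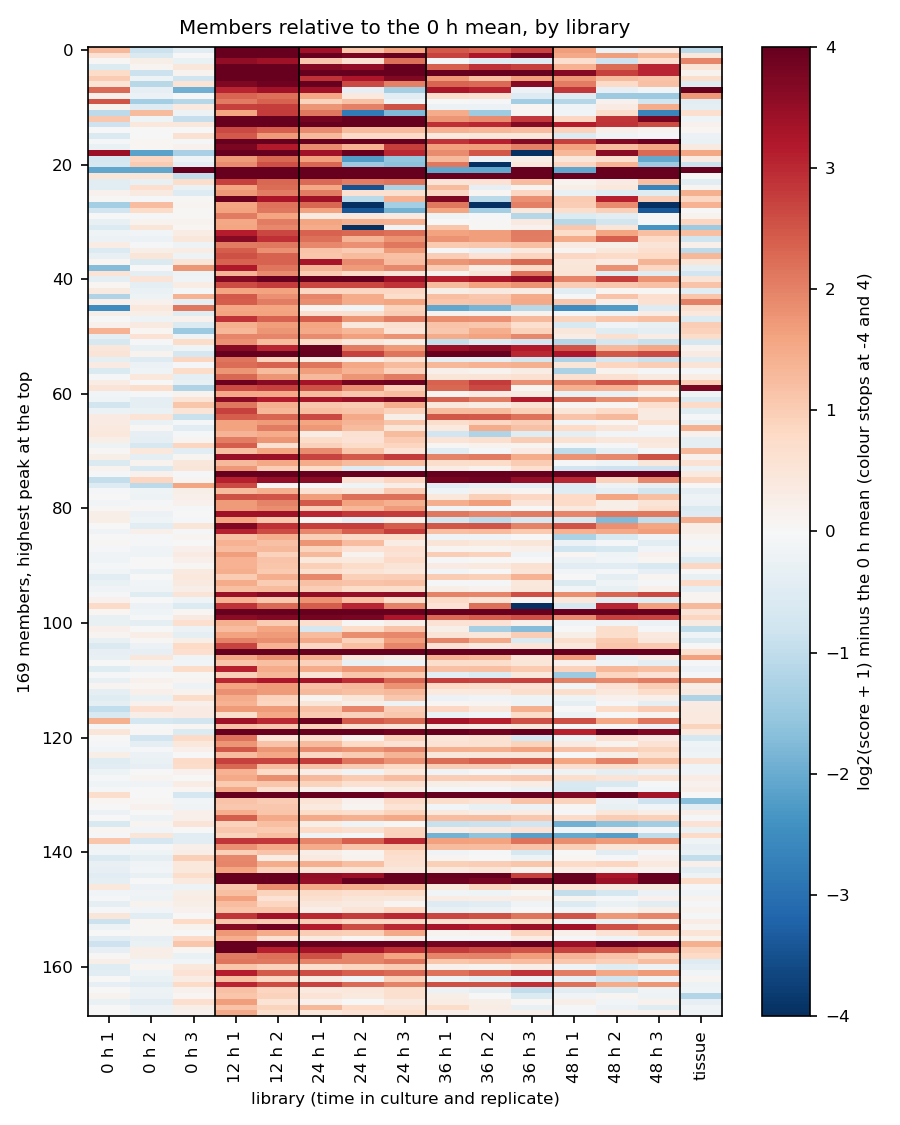
Heat map of log2(score + 1) minus the mean of the 0 h libraries, with the 169 members as rows in order of peak height and the 15 libraries as columns. The 12 h columns are red in nearly all rows, most rows stay red at 24 h and fade by 48 h, and the tissue column is pale except in single rows.

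The highest peaks, measured by the smaller of the differences from 0 h and from 48 h, belonged to genes of unlike function. Hr, a corepressor of nuclear receptors known from the hair follicle, led with a peak height of 3.69 (transcript ENSMUST00000022691, GRCm38 chromosome 14, 70554056 to 70573548, plus strand, 20 exons). Its scores were 74, 16 and 22 at 0 h, 653 and 551 at 12 h, 313, 65 and 94 at 24 h, 169, 153 and 198 at 36 h, then 98, 25 and 38 at 48 h. Both 12 h libraries stood above all others, while 24 h replicate 1 lay well above the other 24 h libraries. The tissue library had a score of 14.

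Dmp1, an acidic matrix protein of dentin and bone, had a peak height of 3.30 (ENSMUST00000066708, chromosome 5, 104202613 to 104214102, plus strand, 6 exons). It went from 21, 24 and 17 at 0 h to 249 and 222 at 12 h, and then to 44, 32 and 98 at 24 h, 20, 14 and 14 at 36 h, then 33, 11 and 33 at 48 h. No library outside 12 h came near the 12 h values, and of its rise 37.5% was left at 24 h. The tissue, with a score of 82, lay above the 0 h libraries and below both 12 h libraries. Clu, which encodes the secreted chaperone clusterin, rose from 131 ± 20.0 (SD, n = 3) at 0 h to 633 ± 41.0 (n = 2) at 12 h and fell to 61.7 ± 25.4 (n = 3) at 48 h, below its starting level.

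Hivep3, a zinc finger protein of the Schnurri family that restrains bone formation, had a peak height of 3.02, but its 12 h libraries differed widely, with scores of 1342 and 235 against 9, 15 and 19 at 0 h. The lower 12 h library fell within the range of the 24 h libraries, which had 187, 172 and 327. The listed Hivep3 transcript is annotated as a processed transcript of 3 exons. Rnf39, a RING finger protein, had scores of 2, 0 and 1 at 0 h, 120 and 130 at 12 h, then 22, 11 and 14 at 48 h. Arhgef37, a predicted guanine nucleotide exchange factor, went from 8, 3 and 5 to 160 and 210 and back to 16, 18 and 14.

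Among the remaining members of the highest 15, Grp, Fstl4 and Adcy1 are protein-coding genes described here or below, and Gm6563, Gm26870, Gm15867 and ENSMUST00000176961 are gene models without an established function. Adcy1, a calcium-stimulated adenylyl cyclase, had 345, 339 and 350 at 0 h, 2154 and 1829 at 12 h, 1287, 822 and 823 at 24 h, 899, 876 and 810 at 36 h, then 648, 394 and 370 at 48 h. Its libraries at 24 h and 36 h overlapped, and the 12 h libraries lay above all of them. The peak heights of these 15 ran from 2.12 to 3.69, and the median over all members was 1.32.

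**Figure D2:**
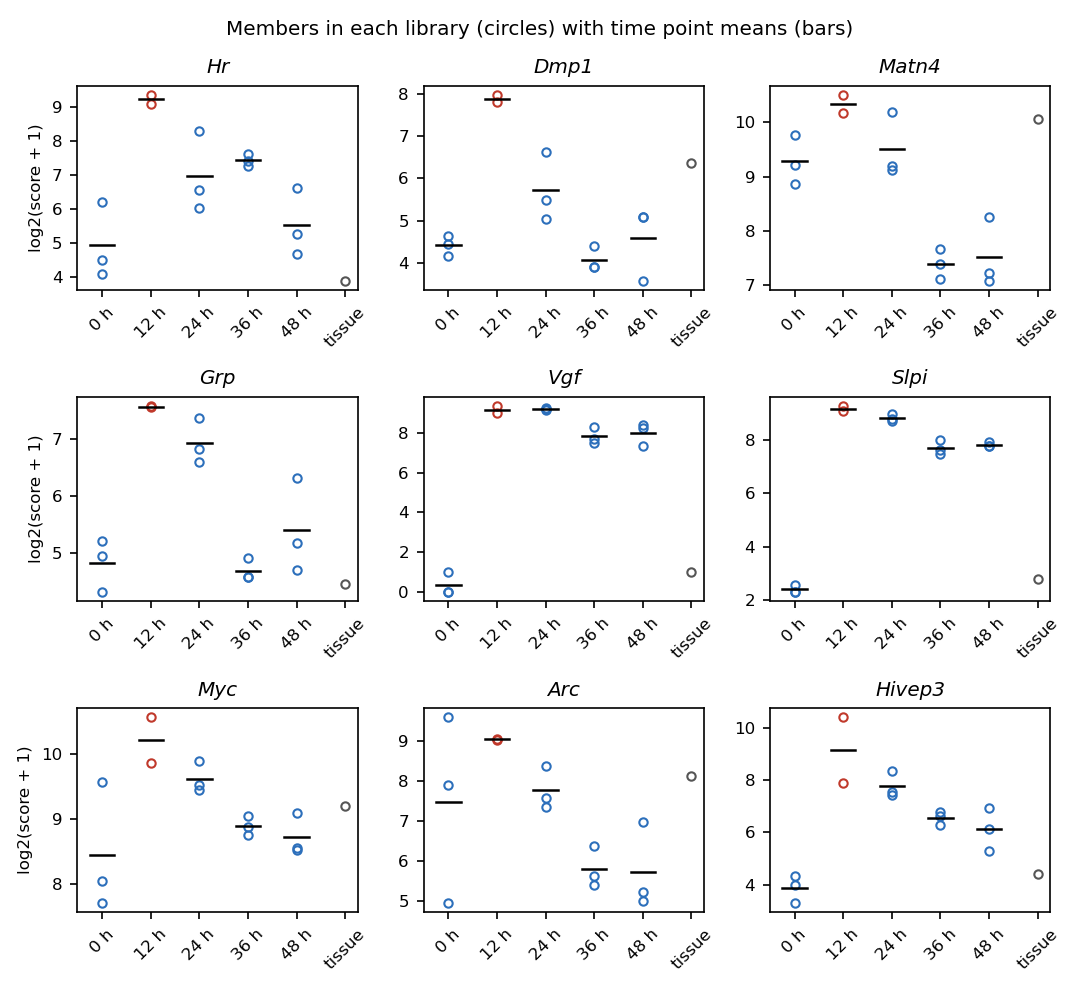
Values of 9 members in each library as circles (12 h in red, tissue in grey) with the mean of each time point as a bar, on the log2(score + 1) scale, with an own vertical axis for each gene. Dmp1 and Grp fall back to the 0 h level by 36 h, Vgf and Slpi stay far above it, and the 0 h libraries of Myc and Arc are widely spread.

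Genes of cholesterol and fatty acid synthesis were the list with the most members. Of the 34 genes in the list, 14 were members, among them the enzymes Hmgcs1, Idi1, Fdps, Fdft1, Sqle, Lss, Cyp51, Msmo1, Nsdhl and Hsd17b7 and the desaturase Scd1. The mean was highest at 12 h in 13 of these 14, a count that the choice of members fixes in large part. It was highest at 12 h in 13 of the other 20 genes, against 17.1% of all transcripts, and in 26 of 34 in all. The median difference from 0 h over the whole list was 1.02 on the log2 scale at 12 h. It declined to 0.65 at 24 h, then 0.16 at 36 h, and was -0.29 at 48 h. At 48 h the mean lay below the 0 h mean in 10 of the 14 members and in 16 of the other 20 genes, against 48.5% of all transcripts.

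Members lay along the length of the pathway. At the entry, Hmgcs1, which makes hydroxymethylglutaryl-CoA (chromosome 13, 119690446 to 119708082, plus strand), had 5983, 9804 and 12971 at 0 h, 17385 and 20902 at 12 h, 10718, 8295 and 9415 at 24 h, 4930, 5039 and 5385 at 36 h, then 2385, 2896 and 3517 at 48 h. Both 12 h libraries lay above all others, the 0 h libraries were spread, and every 48 h library lay below every 0 h library.

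In the isoprenoid steps, Idi1, the isopentenyl diphosphate isomerase (chromosome 13, 8885501 to 8892451, plus strand), had 1819, 2421 and 2467 at 0 h, 6497 and 9215 at 12 h, 6633, 5908 and 5785 at 24 h, 2172, 2264 and 2850 at 36 h, then 1035, 1334 and 2088 at 48 h. One 24 h library reached the lower 12 h library, and the 36 h libraries were back in the range of 0 h or just above it. Fdps, the farnesyl diphosphate synthase, went from 3927 ± 259 (n = 3) to 9740 ± 1397 (n = 2) at 12 h and to 2565 ± 946 (n = 3) at 48 h. Of the 31-base words of the Fdps transcript 85.8% also occur in other gene models, among them processed copies. The share was 32.0% for Idi1 and 47.5% for Fdft1 (mainly with Ctsb), so reads of these genes may have been shared.

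In the sterol steps, Fdft1 (squalene synthase) rose 1.27, Sqle (squalene epoxidase) 1.08, Lss (lanosterol synthase) 1.24, Cyp51 (lanosterol demethylase) 1.25, Msmo1 (methylsterol monooxygenase) 1.43, Nsdhl (sterol dehydrogenase) 1.66 and Hsd17b7 (ketosterol reductase) 1.501 on the log2 scale from 0 h to 12 h. Hsd17b7 was tight between libraries, with 802, 833 and 942 at 0 h, 2428 in both 12 h libraries, 2042, 1796 and 2016 at 24 h, 952, 1077 and 1104 at 36 h, then 719, 715 and 937 at 48 h. Its levels at 0 h and 48 h overlapped. Cyp51 differed from the rest in that its mean was highest at 24 h, where its libraries had 18544, 9603 and 9804 against 10099 and 13670 at 12 h.

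The regulator genes Srebf1 and Srebf2 were no members and differed by -0.02 and 0.47 between 12 h and 0 h, and Insig1, a feedback gene of the pathway, by 0.41, while Insig1 at 48 h lay 1.62 below 0 h.

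**Figure D3:**
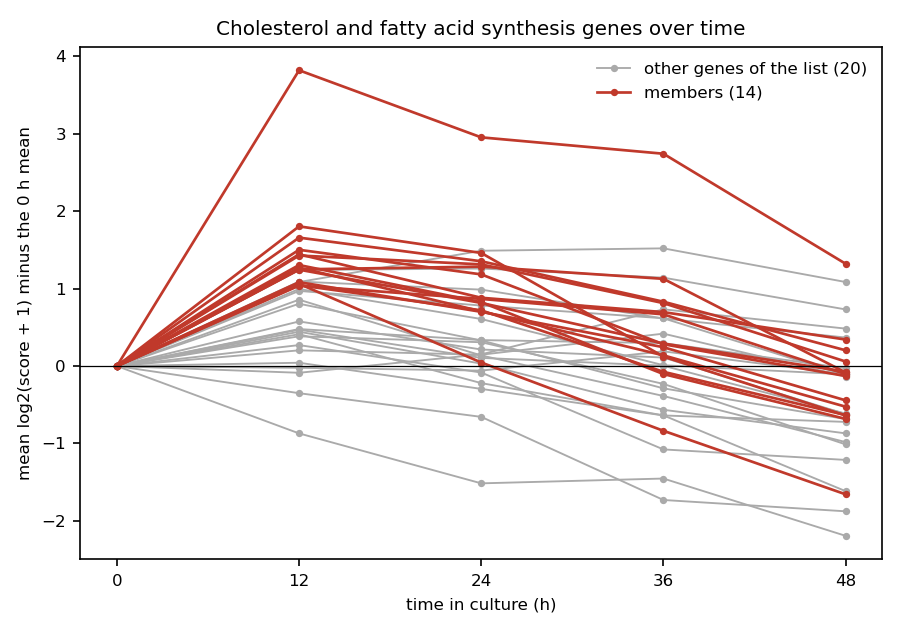
Mean log2(score + 1) minus the 0 h mean of the 34 genes of cholesterol and fatty acid synthesis against time in culture in hours, with the 14 members in red and the 20 other genes in grey. The red lines rise to 12 h, all but that of Cyp51 decline from there to 24 h, and they end on either side of the 0 h level.

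Promoter sequences were available from RefSeq (GRCm38.p6, 250 bases before to 50 bases after the start) for 92 members and for 8319 genes of the table in all. The words searched were the sterol regulatory element TCACNCCAC and the CCAAT box (CCAAT), both on either strand and both chosen after the members were known. The CCAAT box stood in 7 of 7 promoters of members of the cholesterol list, in 9 of 13 promoters of its other genes, in 29 of 85 promoters of the remaining members and in 39.3% of all 8319 promoters. In the 100 bases nearest the start it stood in 5 of those 7 and in 15.5% of all. The sterol element stood in 1 of the 7 (Hmgcs1, first base at -137) and in 1.01% of all promoters. A match is a description of the letters and not of a bound site. The promoters of the 3 members of the list with the largest falls from 24 h to 36 h among those with a sequence are shown, to let the spacing of the words be seen. Letters run along the gene's strand, and capitals mark the sterol element and the CCAAT box, which reads ATTGG where it lies on the opposite strand.
Hmgcs1 promoter, chr13:119690101-119690400, plus strand: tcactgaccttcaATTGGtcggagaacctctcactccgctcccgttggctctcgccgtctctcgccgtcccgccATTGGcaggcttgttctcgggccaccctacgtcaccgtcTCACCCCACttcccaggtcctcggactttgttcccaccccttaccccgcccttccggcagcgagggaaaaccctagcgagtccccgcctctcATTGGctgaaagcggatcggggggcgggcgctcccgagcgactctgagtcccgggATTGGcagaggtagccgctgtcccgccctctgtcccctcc
Idi1 promoter, chr13:8885356-8885655, plus strand: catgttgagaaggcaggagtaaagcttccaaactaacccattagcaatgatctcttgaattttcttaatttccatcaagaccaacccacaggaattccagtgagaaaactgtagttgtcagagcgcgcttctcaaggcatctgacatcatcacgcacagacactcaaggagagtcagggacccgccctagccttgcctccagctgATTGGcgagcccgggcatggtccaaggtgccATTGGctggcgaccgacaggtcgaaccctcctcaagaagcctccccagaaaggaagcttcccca
Hsd17b7 promoter, chr1:169969156-169969455, minus strand: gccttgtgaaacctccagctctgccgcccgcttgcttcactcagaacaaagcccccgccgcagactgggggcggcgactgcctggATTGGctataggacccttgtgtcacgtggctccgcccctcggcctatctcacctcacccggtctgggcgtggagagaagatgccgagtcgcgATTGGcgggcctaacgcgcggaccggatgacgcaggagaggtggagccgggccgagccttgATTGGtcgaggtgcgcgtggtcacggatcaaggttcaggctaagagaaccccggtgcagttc
Hmgcs1 held 4 copies of the CCAAT box, Hsd17b7 3 and Idi1 2, all in the reverse orientation. Counted from the start as base 0, the first letters of the copies nearest to it lay at -45 and 10 in Hmgcs1, at -14 and -45 in Idi1 and at -12 and -73 in Hsd17b7.

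Early response factors and growth factor ligands gave 3 members of 39 genes with values in each list, against 1.40% of all transcripts. Myc, the transcription factor of growth and ribosome production, had 208, 263 and 752 at 0 h, 1507 and 929 at 12 h, 735, 696 and 941 at 24 h, 465, 429 and 527 at 36 h, then 373, 367 and 545 at 48 h. The 12 h libraries lay above all 0 h and 48 h libraries, but the third 0 h library was far above the other two. The same library stood out for Arc, an immediate early gene best known from neurons, with 30, 236 and 774 at 0 h against 521 and 533 at 12 h, so that the groups overlapped. Snai1, a repressor of epithelial genes, had 13, 45 and 156 at 0 h and 431 and 204 at 12 h.

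The third 0 h library had the highest score of the 0 h libraries in 88 of the 169 members, the first in 45 and the second in 36. Without it, 195 members were found, 167 of them shared. Over the whole list of 39 early response genes the median difference between 12 h and 0 h was -0.07, and 10 had their highest mean at 12 h.

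The ligand genes were Pdgfb, Bmp2 and Tgfb1. Bmp2, a ligand of the odontogenic BMP pathway (chromosome 2, 133552159 to 133562885, plus strand), had 214, 236 and 330 at 0 h, 720 and 514 at 12 h, 582, 565 and 573 at 24 h, 241, 247 and 340 at 36 h, then 171, 228 and 245 at 48 h. The 12 h and 24 h libraries formed a plateau above all libraries of the other times. Pdgfb, a mitogen of mesenchymal cells, had 97, 188 and 112 at 0 h and 497 and 493 at 12 h, and it stayed at 354 to 487 at 36 h before it fell to 156, 197 and 157 at 48 h. Tgfb1 had 56, 72 and 149 at 0 h, and its 12 h libraries differed, with 554 and 221.

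Among the genes of dental signalling, 4 of 51 with values were members, against 1.40% of all transcripts. The list as a whole went the other way, with a median difference from 0 h of -0.54 on the log2 scale at 12 h and -1.39 at 48 h. Nog, which encodes the BMP antagonist noggin, rose 4.78 on the log2 scale from 0 h to 12 h, with 35, 52 and 138 at 0 h, 1839 and 1699 at 12 h, 1593, 1475 and 1356 at 24 h, 906, 929 and 1029 at 36 h, then 684, 991 and 961 at 48 h. Its 12 h peak sat on a lasting rise, since every cultured library lay far above the 0 h libraries and the tissue (172). Dlx2 and Dlx5, homeobox genes of the jaw mesenchyme, and Foxd1, a forkhead gene, rose 1.19, 1.36 and 1.08 on the log2 scale from 0 h to 12 h. For Dlx2 the scores were 324, 376 and 751 at 0 h, 1255 and 850 at 12 h, then 389, 512 and 521 at 48 h, and for Dlx5 the 12 h libraries had 240 and 78. Of the markers used to check the tissue, Dlx2 was the only member in the dental mesenchyme list, whose median difference between 12 h and 0 h was -0.31.

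Single members came from 5 further lists of 27 to 39 genes with values, a count near the 1.40% of all transcripts that were members. Dusp8, a phosphatase of MAP kinases, had 28, 57 and 174 at 0 h and 367 and 236 at 12 h. Mmp3, a matrix metalloproteinase, had 6, 8 and 11 at 0 h, 344 and 447 at 12 h, then 354, 98 and 196 at 48 h, so that the first 48 h library reached the 12 h level. Tead1, the DNA-binding partner of YAP, had 947, 1146 and 2205 at 0 h and 11557 and 3762 at 12 h. Slc7a3, a transporter of cationic amino acids, had 37, 23 and 50 at 0 h and 184 and 182 at 12 h, and Myc was also the member of the list of growth genes. No member belonged to the lists of ribosome biogenesis, NF-kB and interferon response, p53 targets, hypoxia and glycolysis, antioxidant response, unfolded protein response, cell cycle, cytokines or adhesion. These lists held 15 to 61 genes with values each. With 1.40% of all transcripts as members, nothing is read from the absence.

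Several members are known from other cell types than mesenchyme. The epithelial genes Krt6a, Krt79, Slpi and Spink5 were members, and none of them is on the list of epithelial markers. That list held 0 members, and its median difference between 12 h and 0 h was -0.72 on the log2 scale. In 4 of the listed markers the mean log2 value was highest at 12 h. Krt79, a keratin, had 7, 7 and 2 at 0 h, 566 and 666 at 12 h, then 91, 207 and 204 at 48 h, with 5 in the tissue. Krt6a had 764, 15 and 28 at 0 h, 1311 and 1681 at 12 h, 261, 395 and 0 at 36 h, then 176, 858 and 339 at 48 h, and 66.6% of its 31-base words occur in other gene models, mainly Krt6b. The summed score of the epithelial markers (9 of 10 with values, none of the 9 at 0 in the 12 h mean) was 2438 to 20928 at 0 h, 3653 to 4265 at 12 h, 1553 to 3039 at 24 h, 89 to 989 at 36 h and 574 to 1971 at 48 h. The study's methods state that the epithelium was separated with dispase before the cells were taken. The part of epithelial cells in these values was not tested.

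Lyz2, the lysozyme gene of macrophages, had 113, 192 and 126 at 0 h, 409 and 514 at 12 h, then 449, 114 and 168 at 48 h. The summed score of the macrophage markers (5 of 11 with values, Lyz2 included) was 908 to 1270 at 0 h, 1026 to 1212 at 12 h and 452 to 781 at 48 h. From 0 h to 12 h the mean score fell for Csf1r (428 to 282), C1qa (102 to 17) and Ptprc (311 to 239). It rose for Adgre1 (81 to 119.5). The median difference over the list was -0.38 on the log2 scale, and the part of macrophages was not tested. Des, the intermediate filament gene of muscle, had 70, 80 and 21 at 0 h, 303 and 336 at 12 h, then 134, 130 and 80 at 48 h. The muscle markers (8 of 9 with values, Des included) summed to 433 to 1786 at 0 h, 1573 to 1652 at 12 h and 1396 to 2980 at 48 h, and the part of muscle cells was not tested either.

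A group of 8 members were gene models that share much of their sequence with each other. Gm26870, Gm10717, Gm10718, Gm10719 and Gm10721 lie at the proximal end of chromosome 9 (3000282 to 3026387), Gm10800 and Gm10801 on chromosome 2 (98662237 to 98667301) and Gm21738 on chromosome 14 (19415857 to 19418930). Between 36.2% and 89.3% of their 31-base words occur in another gene model, and Gm26870 has 646 different words in a transcript of 1170 bases, a mark of internal repetition. Their values are reported as uncertain, because reads from the shared stretches could belong to more than 1 of them. Summed over the 8 models, the score was 5955 and 11265 at 12 h, 7320, 256 and 714 at 24 h, then 5371, 1016 and 2301 at 36 h. At 0 h it was 1085, 3969 and 1702, and at 48 h 2293, 3224 and 340. The 24 h libraries thus ran from below every 0 h library to above the lower 12 h library, and the first replicate was highest at both 24 h and 36 h. The 3 members with the smallest share of their rise left at 24 h, Gm21738, Gm10719 and Gm10801, belonged to this group.

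**Figure D4:**
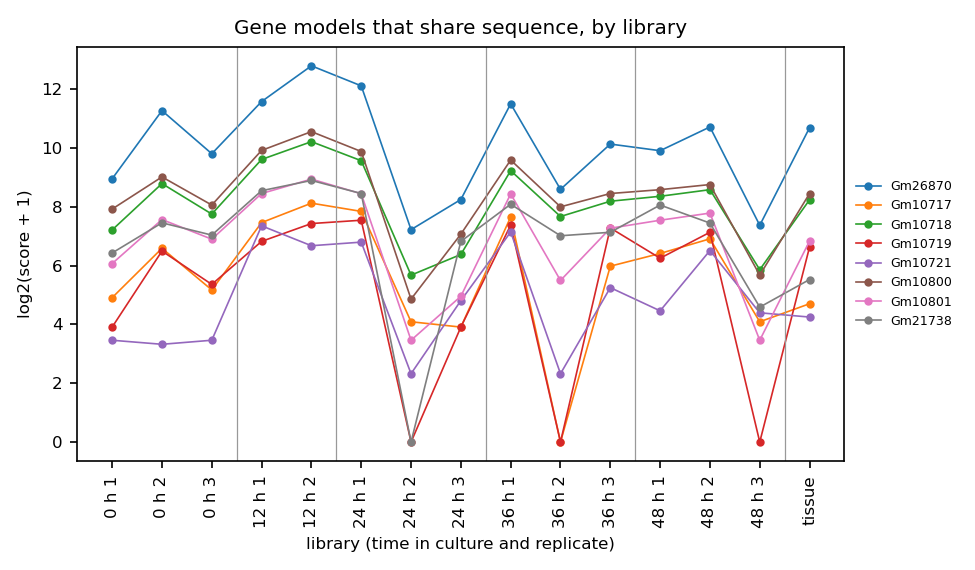
Values of the 8 gene models that share sequence, on the log2(score + 1) scale, in each of the 15 libraries, with time points separated by vertical lines. Most lines rise and fall in parallel from library to library, with dips in 24 h replicates 2 and 3, 36 h replicate 2 and 48 h replicate 3.

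Over all members, 18 shared more than 50% of their 31-base words with another gene model, among them Srp54a (100%, with Srp54b and Srp54c), Gm9747 (100%, within Irs1), Gm45234 (96.8%, with Atn1) and Gm6563 (94.9%, with Sarnp). Srp54a varied widely between replicates, with 0, 0 and 75 at 0 h, 326 and 275 at 12 h, 417, 675 and 657 at 24 h, 0, 0 and 972 at 36 h, then 0, 582 and 772 at 48 h. Nespas, Igf2os and Gm15867 are antisense to other genes, and the counting is not stated to use strand, so reads of the partners cannot be told apart. Gm15867 also shared 30.45% of its words with Sertad4, and D030028A08Rik shared 40.03% with other gene models, so that their values are uncertain.

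The members differed in how long they stayed up. At 24 h a median of 71.0% of the 12 h rise on the log2 scale was left, and more than 50% was left in 120 members. Every 24 h library lay above every 0 h library in 123 of 169 members (72.8%), against 4326 of all 12089 transcripts (35.8%), but the 0 h values of the members had been chosen to be low, and nothing is read from the difference. The 24 h mean was above the 0 h mean in 160 members, the 36 h mean in 134 and the 48 h mean in 109. At 48 h, 72 members were within 0.5 of the 0 h mean on the log2 scale, 54 were still at least 1 above it and 5 at least 1 below it (Clu, Arc, Ppm1e, Hmgcs1 and Matn4).

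At the lasting end, Vgf, which encodes a secreted neuropeptide precursor, was hardly present at 0 h (0, 0 and 1) and had 524 and 662 at 12 h, 576, 628 and 607 at 24 h, 210, 182 and 325 at 36 h, then 312, 339 and 165 at 48 h. It was 7.69 above 0 h on the log2 scale at 48 h, a difference that depends on the 1 added to each score. Slpi, a secreted protease inhibitor, had 4, 5 and 4 at 0 h, 547 and 615 at 12 h, 423, 439 and 501 at 24 h, and 179 to 253 over the libraries of 36 h and 48 h. Slpi and Krt79 were 5.42 and 4.77 above 0 h at 48 h. Slc29a2, a nucleoside transporter, Fstl4 and Srp54a had 24 h means above their 12 h means, with 103%, 104% and 115% of the 12 h rise left.

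At the other end, Matn4, an adaptor protein of the extracellular matrix (chromosome 2, 164389393 to 164404612, minus strand), ended 1.76 below 0 h. It had 592, 869 and 463 at 0 h, 1155 and 1444 at 12 h, 553, 586 and 1172 at 24 h, 166, 203 and 137 at 36 h, then 148, 135 and 304 at 48 h. The third 24 h library was at the 12 h level while the other two were in the range of 0 h. Arc and Hmgcs1 ended 1.75 and 1.66 below 0 h.

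The libraries at 24 h and 36 h did not enter the choice of members, and the difference between these times was tested member by member. The choice fixed a fall of at least 1 on the log2 scale between 12 h and 48 h, but not the interval in which it took place. Falls from 24 h to 36 h are thus likelier in members than in all transcripts, and nothing is read from the excess. The spread in the fit came from all 14 mDMC libraries, those used for the choice included. In the limma fit across 12079 transcripts, 55 of the 169 members (32.5%) were lower at 36 h than at 24 h at an adjusted p below 0.05, against 9.64% of all transcripts tested. None were higher, against 10% of all, and at an unadjusted p below 0.05, 81 were lower and 1 was higher, against 17.9% and 16.9% of all. The median change of the members was -0.52 on the log2 scale, with 140 of 169 below 0, and that of all transcripts was -0.02, with 52.7% below 0. In all 55 called members every 36 h library lay below every 24 h library, and this held for 91 of the 169 members, against 25.1% of all transcripts. The members were also more variable, with a median residual SD of 0.392 against 0.171. At the fold change of over 2 and the unadjusted p of the study's own rule, 32 members were lower (1.76% of all transcripts) and 1, Dpep1, was higher (2.41% of all). Single libraries moved the count: it was 32 without 24 h replicate 3 (3.75% of all transcripts), 30 without 36 h replicate 1 (4.11%) and 30 without 36 h replicate 2 (4.06%). Without the 8 gene models that share sequence, an alternative chosen after seeing the data, 55 of 161 members were called lower.

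**Figure D5:**
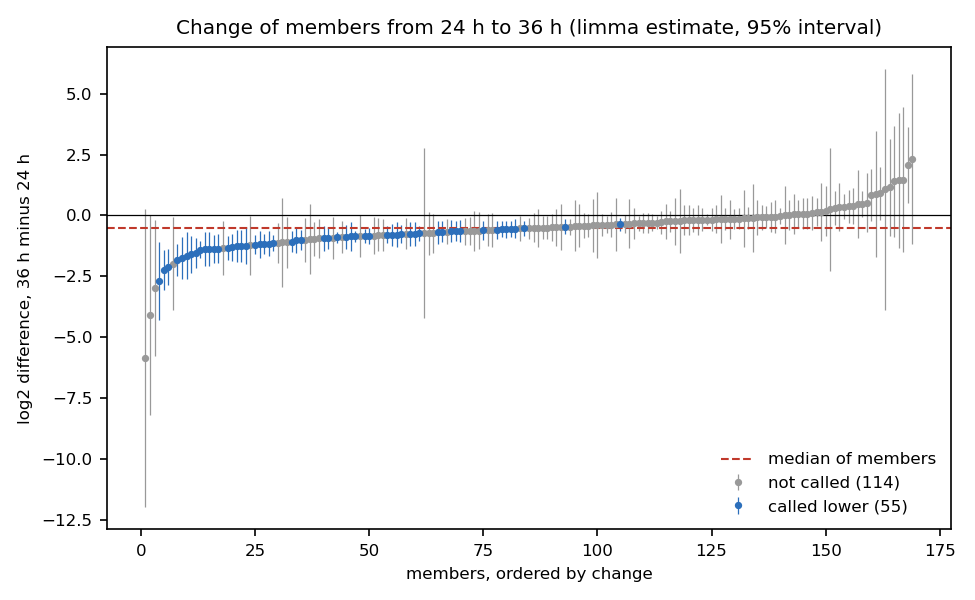
Differences between 36 h and 24 h for the 169 members in order of size, on the log2 scale, as limma estimates with 95% intervals, blue where called lower and grey where not called, with the members' median as a dashed line. Most points lie below 0, 140 of 169 in all.

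The largest falls among called members were those of Fstl4, Grp, Matn4, Gm8773, ENSMUST00000176961, Dmp1, Gm15867 and D030028A08Rik, between -2.70 and -1.54 on the log2 scale, and the values of the last 2 are uncertain for the shared sequence given above. Grp, gastrin-releasing peptide, went from 96, 113 and 165 at 24 h to 23, 23 and 29 at 36 h, after 189 and 191 at 12 h and 30, 19 and 36 at 0 h. All 36 h libraries lay below all 24 h libraries and within the range of 0 h. The change was -2.24 ± 0.37 (SE; limma adjusted p = 0.00231). Matn4 changed by -2.11 ± 0.35 (limma adjusted p = 0.00215). Fstl4, a follistatin-like secreted protein, went from 79, 162 and 337 to 18, 20 and 39, a change of -2.70 ± 0.74 (limma adjusted p = 0.0242). Dmp1 changed by -1.65 ± 0.45 (limma adjusted p = 0.0229). Gm8773, a gene model with a tight peak (12, 13 and 12 at 0 h, 535 and 645 at 12 h), went from 321, 506 and 528 to 98, 115 and 170. Dusp9, a phosphatase of MAP kinases chosen here after its values were seen, had the smallest adjusted p of all members (0.000414 by limma), with 798, 1013 and 1329 at 24 h, then 369, 382 and 415 at 36 h.

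In the list of cholesterol and fatty acid synthesis, 14 of 34 genes were lower at 36 h than at 24 h and 1 (Insig2) was higher, where 9.64% of all transcripts were lower and 10% higher. The choice of members makes falls likelier in part of this list. Of the 14 members of the list, 7 were called lower, among them Idi1 (-1.34 ± 0.22, SE), Fdps (-0.93 ± 0.20), Hsd17b7 (-0.90 ± 0.11), Hmgcs1 (-0.88 ± 0.23), Fdft1 (-0.57 ± 0.15) and Lss (-0.52 ± 0.14). The values of Idi1, Fdps and Fdft1 carry the limit of shared sequence given above. Sqle, at -0.46 ± 0.15, just missed the threshold (limma adjusted p = 0.0504), and Nsdhl, Msmo1, Cyp51 and Scd1 were not called either. Of the other 20 genes of the list, 7 were lower, among them Elovl6 (-1.07 ± 0.16), which lengthens long-chain fatty acids, Acaca (-0.99 ± 0.13), which makes malonyl-CoA, and the fatty acid synthase Fasn (-0.60 ± 0.13), which lay just outside the choice of members. The median over the list was -0.44.

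Bmp2 fell by 1.07 on the log2 scale (SE 0.20, limma adjusted p = 0.00402). It was the only called member on the lists of early response, ligand, MAP kinase, protease, cytoskeleton and dental genes, where 9.64% of all transcripts were lower. These lists held few members, and nothing is read from the count. The called phosphatase Dusp9 was on none of them. Myc (-0.73 ± 0.37, limma adjusted p = 0.185), Arc (-1.98 ± 0.88, adjusted p = 0.131), Dlx2 (-0.75 ± 0.30, adjusted p = 0.0914) and Nog (-0.63 ± 0.35, adjusted p = 0.226) were not called. Vgf (-1.38 ± 0.33, limma adjusted p = 0.0130) and Slpi (-1.12 ± 0.16, limma adjusted p = 0.000919) were lower at 36 h and still far above 0 h. Dpep1, a membrane dipeptidase, had 258, 31 and 38 at 24 h, then 301, 320 and 242 at 36 h, and its rise of 2.06 ± 0.72 had an adjusted p of 0.0624 by limma.

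The tissue library was set beside the 0 h libraries with no test. It lay above every 0 h library in 51 members (30.2%, against 29.7% of all transcripts) and below every one in 35 (20.7%, against 32.0%), and it lay below both 12 h libraries in 164 (97.0%, against 45.8%), a count that the choice of high 12 h values fixes in large part. The exceptions were Des (696) and Gm6563 (247), which were above both, and Fkbp11, Ppm1e and Lyz2, which lay between them. Sgms2, a sphingomyelin synthase, had 1660 in the tissue against 472, 464 and 315 at 0 h and 2188 and 1689 at 12 h.

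The 12 h replicates were more than 1 apart on the log2 scale in 14 members (8.28%, against 2.94% of all transcripts): Hivep3, Gm26870, Snai1, Bach2, Tram2, Hipk2, Gm45234, Tgfb1, Tead1, Dlx5, Arid5b, Cherp, Raph1 and Efna5. Replicate 1 was the higher in 13 of these, and replicate 2 in Gm26870.

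The members closest to the thresholds were Gm17167 (1.004) and Kirrel3 (1.01) for the difference between 12 h and 0 h, with Fasn (0.996) and Tubb2b (0.995) just outside. For the difference from 48 h they were Erc1 (1.001) and Efna5 (1.01) inside, and Il1r1 (0.999) and Rgcc (0.989) outside. For the score at 12 h they were Gm11946 (107.5) and Spink5 (114.0) inside, and Ovol1 (97.0) and Gm10720 (94.0) outside.

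The median length of the members' transcripts was 3027 bases against 2885, their median GC content 52.3% against 50.1% and their median exon number 6 against 8. The word ATTTA, known from unstable mRNAs, occurred a median of 1.504 times per kb of 3' UTR in the 127 members with such a stretch, against 1.43 in the 10062 transcripts of the table. Of the members 136 (80.5%) are annotated as protein-coding, against 87.1%. In promoters, the AP-1 word TGANTCA stood in 5.43% of 92 members and 4.32% of all 8319 genes, the cAMP element TGACGTCA in 5.43% and 3.44%, the E-box CACGTG in 8.70% and 10.6%, the word TGATGNAA of C/EBP-ATF sites in 4.35% and 1.88%, and TATAAA in 5.43% and 6.58%. An NF-kB motif stood in 16.3% (Wilson 95% interval 10.1% to 25.2%) and 10.51%, the CArG box of serum response in 1.09% and 1.26% and a heat shock element in 1.09% and 0.409%. All were searched on both strands, and the cAMP element and the E-box share their central letters.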

How the data were processed

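RNA-seq was analysed in 15 libraries, grouped by time and numbered by their labels. The authors trimmed adaptors, aligned reads to the mouse transcriptome (mm10, Ensembl) with bowtie and estimated expression with RSEM (version 1.1.21 in the submitters' processing notes, while the study's methods name another version). The values deposited by the authors are normalized scores in whole numbers, with one distribution shared by all libraries. The table is labelled as cpm, which its totals exceed, and the step that gave the common distribution is not given in the sources used here. All columns were used. Intervals from counting error cannot be given, as the depth is unknown.

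Scores were taken as log2(score + 1), which understates the change of low genes. The members and gene lists were chosen with earlier results of these data known. The 14 mDMC libraries entered 1 fit in limma 3.58.1 under R 4.3.3, which gave each time point a mean and used eBayes with an intensity trend, a two-sided contrast of 36 h and 24 h and Benjamini-Hochberg adjustment over 12079 transcripts with at least 1 ppm of the total in 2 libraries. All 169 members passed this filter. The study's own count test was not used because the table holds no counts. Simulated data with known changes were used to test the fit.

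Named were the 15 highest peaks, the 8 largest called falls, up to 5 members of each list by peak height, threshold neighbours, and the 3 extremes of the share left at 24 h and of the 48 h level. Other members were named after their values were seen, to account for whole lists. The values of some genes within these choices are not reported here. No label pairs the 24 h and 36 h libraries, and the main fit did not pair them. Deviations from the time point means correlated weakly in same-numbered libraries, at 0.165, 0.142 and 0.127. Those of different numbers correlated at -0.121 to -0.045, which is no separate evidence, because deviations from a shared mean offset each other. Transcripts were matched to GRCm38 (GENCODE vM21). A promoter was used where its start lay within 500 bases of the transcript's start. Shared sequence was measured over 31-base words of all annotated transcripts. Python 3.11.15, numpy 2.4.6, pandas 2.3.3 and matplotlib 3.10.9 were used. Alternatives were other pseudocounts, filters, samples in the fit, a replicate block, array weights, left-out libraries and a shorter promoter window.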

Additional observations from a re-analysis of the deposited data

Results flagged for a closer look

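The tissue library entered no test. In 2 members it lay above both 12 h libraries as well as above every 0 h library. Des had a score of 696 in the tissue, against 70, 80 and 21 at 0 h and 303 and 336 at 12 h. The summed muscle markers, Des included, were 9079 in the tissue, against 433 to 1786 at 0 h. Gm6563 had 247 in the tissue, against 72, 11 and 3 at 0 h and 125 and 155 at 12 h, and 94.9% of its 31-base words occur in another gene model. With 1 tissue library there is no replicate, and the part of muscle or of shared reads in these values was not tested. No group held more than 3 libraries, so a search for single outlying libraries was not made.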

How the results depend on the processing

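The fall of the members from 24 h to 36 h kept its direction under every alternative that was run: the median change lay between -0.60 and -0.44 on the log2 scale, including the fits that left out 1 library (-0.60 to -0.46). The number of members called lower was 102 with array weights (35.4% of all transcripts), an estimate that had not converged, and 32 under the study's rule of fold change and unadjusted p (1.76% of all), and it ranged from 30 to 45 when 1 library was left out (3.75% to 9.98% of all). The number called higher was 21 with array weights (31.6% of all), 1 under the study's rule (2.41%), and 0 to 6 when 1 library was left out (6 without 24 h replicate 1, where 10.9% of all were higher). The fit of 24 h and 36 h alone gave 75 lower (14.2% of all) and 0 higher, and the minimum of 1 ppm in all 14 libraries gave 44 lower of the 120 members it kept (9.92% of all) and 0 higher (9.93%). Other pseudocounts and no filter gave 54 to 60 lower (9.53% to 9.72% of all) and 0 higher. With the replicate block, 58 members were called lower (9.93% of all) and 0 higher (10.7%), with 50 of the 55 among them and 8 newly called. Of the 55, 25 were called under every alternative that gave a value, and none changed sign. Dmp1, Fstl4 and Vgf lost their call in some (highest adjusted p 0.106 for Fstl4 and 0.188 for Vgf), as did Hmgcs1, Lss and Fdft1 (0.0629, 0.0883 and 0.0723), and the cause was not tested. The number of members was 154 to 175 under other pseudocounts, the log2 of the mean score or no minimum, 155 where both 12 h libraries had to lie above all 0 h and 48 h libraries, and 143 to 297 when 1 library was left out, the highest without 12 h replicate 2. In the 100 bases nearest the start, the members' share minus that of all promoters went from 5.8 to 1.02 percentage points for NF-kB, and changed sign for the cAMP element (2.0 to -0.848), C/EBP-ATF (2.47 to -0.517), the sterol element (1.16 to -0.313), the CCAAT box (-0.213 to 0.774) and the heat shock element (0.678 to -0.0962), each a move smaller than the width of the 95% interval of the members' share. Unknown depth limits all low scores, and with 2 libraries at 12 h each peak rests on few values.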
